A study of Rattus norvegicus with 84 samples.

Results

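The 10 immediate early genes Fos, Fosb, Jun, Junb, Jund, Egr1, Arc, Nr4a1, Dusp1 and Ier2 were followed in RNA of extracellular vesicles (EVs) from the brain and the plasma of rats with ischemic stroke. They were taken by symbol and not by a threshold on their values, but with earlier results of these data known. They are 10 of the 18782 annotated genes in the deposited mRNA count table. The rats were male Sprague-Dawley rats of 8 to 12 weeks, wild type in every group, and each group held 3 rats. Healthy rats had no stroke. Control rats had a 90 min occlusion of the middle cerebral artery followed by reperfusion and an injection of saline, and hNSCs rats had the same occlusion and 200000 human neural stem cells (hNSCs) through the carotid artery 3 days later. Both arms were sampled 4, 10 and 31 days after stroke, that is from 1 day after the injection on. Each of the 21 rats gave 1 library of EVs from the hemisphere on the side of the occlusion and 1 of EVs from plasma. The values used here come from reads aligned to the rat genome, and the study's human alignments of EV mRNA were not analysed here.

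Immediate early genes are transcribed within minutes of a stimulus from factors that the cell already holds, without new protein synthesis. In neurons they follow synaptic activity and calcium entry, and in most cells they follow growth factors, stress and injury. Fos and Fosb pair with Jun, Junb or Jund into the AP-1 transcription factor. Egr1 is a zinc finger transcription factor and Nr4a1 an orphan nuclear receptor. Arc acts at the synapse, where it drives the removal of AMPA receptors, and its protein forms capsids that carry its own mRNA into EVs. Dusp1 is a phosphatase that switches off MAP kinases, and Ier2 is a small nuclear protein of the early response.

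The promoter sequences show the elements through which such genes are induced, the cAMP response element (CRE), bound by CREB and related factors, and the CArG box, bound by serum response factor. RefSeq promoters of the GRCr8 build, from 250 bases before to 50 after the transcription start, were at hand for 7 of the 10 members. The full CRE TGACGTCA, which reads the same on both strands, was found in 3 of these 7, and in 1.83% of the 33469 promoters. A CArG box was found in 1, and in 1.64% of all promoters on either strand. The AP-1 site TGACTCA was found in none of the 7 on either strand and in 4.63% of all promoters. The windows below run 5′ to 3′ on the strand of the gene, with the motif in capitals.
Dusp1 (chr10:17184713-17184752, plus strand, CRE starting 124 bases before the start): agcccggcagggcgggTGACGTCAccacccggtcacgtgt
Jund (chr16:18769969-18770008, minus strand, CRE starting 221 bases before the start): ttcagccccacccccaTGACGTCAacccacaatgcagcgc
Ier2 (chr19:40399291-40399330, plus strand, CRE starting 66 bases before the start): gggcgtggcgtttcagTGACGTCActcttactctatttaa
Egr1 (chr18:26736957-26737020, plus strand, 2 CArG boxes, the first starting 105 bases before the start): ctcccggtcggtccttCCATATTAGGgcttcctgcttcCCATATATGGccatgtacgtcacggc

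The libraries differed in how many reads fell on annotated genes. Annotated genes held 569136 to 15587216 counts in brain and 6357675 to 31028559 in plasma, which was 3.18 to 51.9% of all counts in brain and 45.1 to 75.6% in plasma. The rest lay in 7855 features that the authors had assembled as new genes. The members together took 667 to 12728 counts in a brain library and 2322 to 22277 in a plasma library. In 5 brain libraries annotated genes held under 2000000 counts, 2 of them hNSCs at day 10. Neuron markers were called higher in brain than in plasma in 7 of 7 cases, and those of platelets (5 of 5), red cells (6 of 6) and liver (5 of 5) higher in plasma, as the tissue labels say.

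Per transcript length, in FPKM, Jund was the most abundant member in both tissues. Its median over 21 libraries was 5.17 FPKM in brain and 21.2 FPKM in plasma. In brain it was followed by Junb (median 1.77), Jun (1.62), Arc (1.15), Fos (0.82), Nr4a1 (0.69), Ier2 (0.59), Dusp1 (0.49), Egr1 (0.28) and Fosb (0.11). In plasma the medians below Jund were 7.70 for Ier2, 7.40 for Nr4a1, 7.26 for Junb, 7.19 for Dusp1, 5.03 for Jun, 3.79 for Fos and 1.31 for Egr1, and those of Fosb and Arc were 0. The lowest and highest libraries were far apart, at 0.318 and 10.7 FPKM for Jund and 0.162 and 9.28 FPKM for Arc in brain, so neighbours in the order overlapped widely. Jun, Junb, Jund, Arc and Ier2 had counts in all 21 brain libraries. Counts were 0 in 8 brain libraries for Egr1, in 4 for Fosb, in 3 for Fos, in 2 for Dusp1 and in 1 for Nr4a1. In plasma Arc was at 0 in 14 libraries, Fosb in 13, Egr1 in 7 and Fos in 2.

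The values below are CPM, that is counts of annotated genes scaled to library size with TMM factors within 1 tissue, and do not compare genes by length. Differences between groups were tested on the counts with edgeR over all genes that passed its filter, and a gene was called if it changed over 1.5-fold with an adjusted p under 0.05. All 10 members passed the filter in both tissues.

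Arc was the member that changed in brain EVs. Arc stood at 119, 233 and 138 CPM in the 3 healthy libraries and at 27.4, 52.1 and 34.0 CPM in control rats at day 4. The groups did not overlap, as in 24.2% of all genes. Arc fell by 2.11 on the log2 scale (SE 0.48, adjusted p = 0.0346, edgeR). The same comparison called 0.861% of the 14515 genes tested. In hNSCs rats at day 4 Arc stood at 29.5, 57.7 and 55.4 CPM, within reach of the control values. The 6 libraries of day 4, with and without cells, spanned 27.4 to 57.7 CPM, and the 15 others spanned 84.5 to 361 CPM. This split was looked at for Arc only, and the share of all genes that part in this way was not computed.

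At day 10 Arc stood at 335, 117 and 204 CPM in control rats and at 361, 156 and 149 CPM in hNSCs rats. At day 31 it stood at 84.5, 101 and 163 CPM in control rats and at 189.6, 97.4 and 296 CPM in hNSCs rats. The means with SD over 3 libraries were 163 ± 60.9 CPM in healthy rats, 37.8 ± 12.8 in control rats at day 4, 219 ± 109.9 at day 10 and 116 ± 41.3 at day 31. The control libraries of days 10 and 31 thus overlapped the healthy ones. Over the 7 groups Arc was also the 1 member for which any difference was called (adjusted p = 0.0091, edgeR), against 2.09% of all genes in brain. In plasma no member was called over the 7 groups (background 0.584%), and the lowest unadjusted p was 0.114, for Jun.

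**Figure D1:**
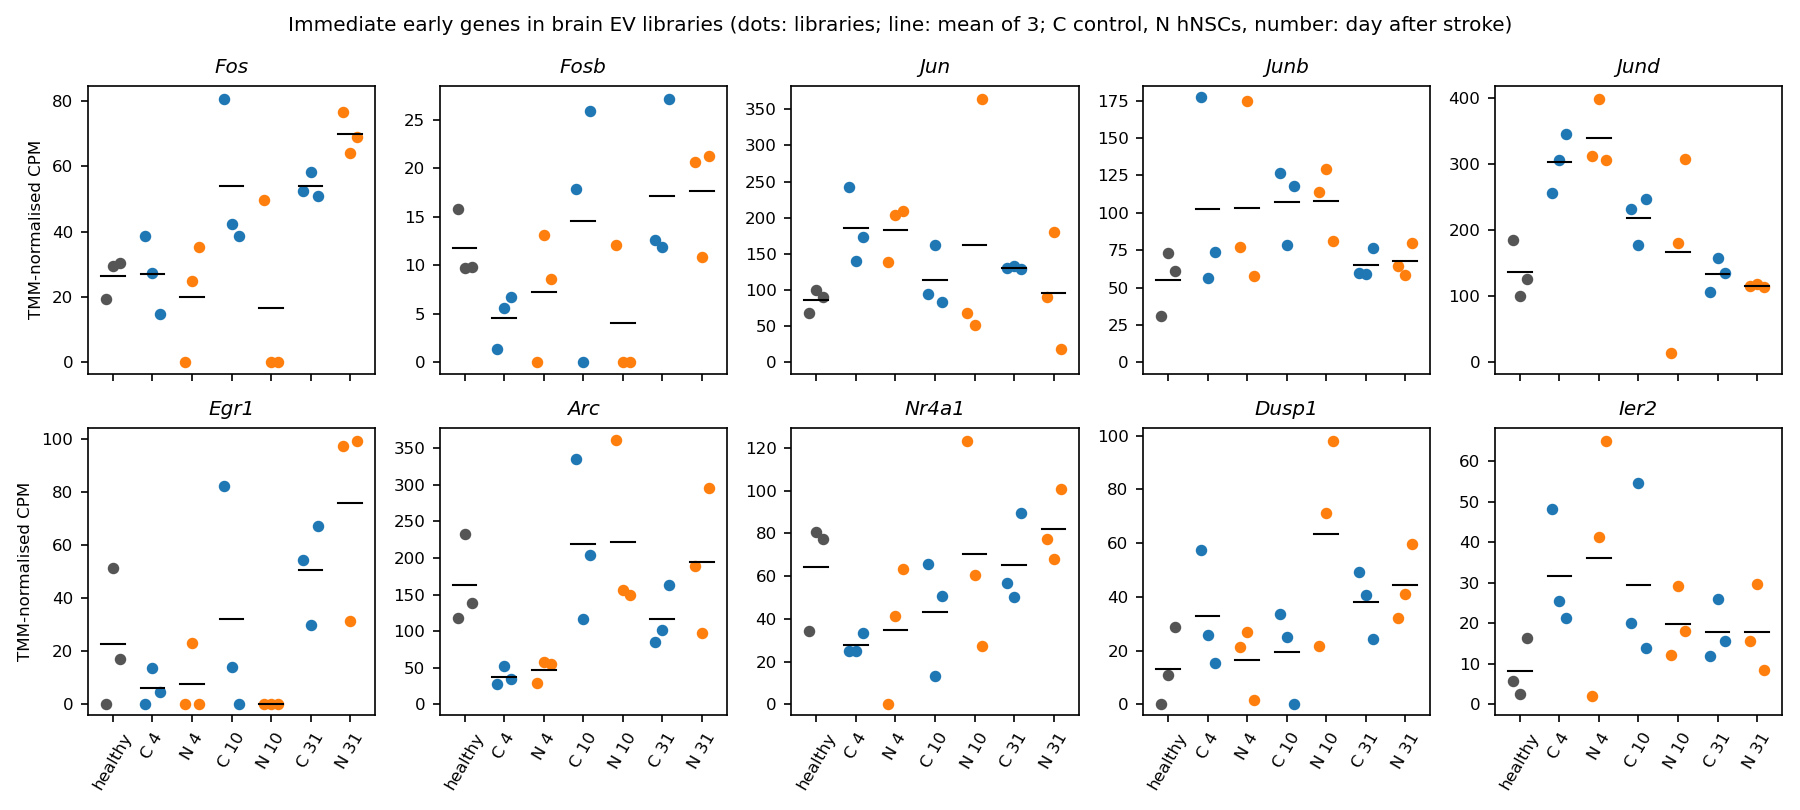
TMM-normalised CPM (y axis, linear, own scale per panel) of the 10 members in the 21 brain EV libraries by group (x axis; C control, N hNSCs, number the day after stroke), with dots for libraries and a line for the mean of 3. Arc is low in all 6 day 4 libraries (27.4 to 57.7 CPM), Jund is high in them, and Egr1 is at 0 in the 3 hNSCs libraries of day 10.

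The call for Arc rests on few libraries and on the scale. Leaving out any 1 of the 6 libraries kept the direction (log2 change −2.42 to −1.80) and raised the adjusted p to between 0.061 and 0.257. On log2(FPKM + 1) with limma the difference was −0.58 (SE 0.40, adjusted p = 0.348), where the median over all genes was 0.37 higher at day 4.

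Arc is expressed mainly in neurons, and neuron markers were lower at day 4 as well. The summed level of 7 neuron markers was 3248 to 3963 CPM in healthy libraries and 1452 to 2443 CPM in control libraries at day 4, and none of the 7 markers was at 0 in either group. All 7 had log2 changes below 0, from −1.01 (SE 0.39) for Slc17a7, the vesicular glutamate transporter of cortical excitatory neurons, to −0.47 (SE 0.45) for Gad1, an enzyme of GABA synthesis, and none was called. Arc per 1000 CPM of neuron markers was 35.0, 58.7 and 42.6 in healthy libraries and 18.9, 23.7 and 13.9 at day 4. The ratio was thus lower in each control library of day 4 than in each healthy one. In hNSCs rats at day 4 it was 15.2, 29.6 and 35.7, which overlapped the healthy range. At day 10 it was 103, 120 and 118 in control rats, above every healthy library, and 109.0, 73.5 and 54.9 in hNSCs rats, again with overlap. In a bulk sample of vesicles, fewer cells of a type and less RNA per cell cannot be told apart. At the same time microglia markers were higher, with a summed level of 350 to 717 CPM against 61.1 to 86.2 CPM in healthy rats and 1 of 7 called. The 5 astrocyte markers summed to 3297 to 3538 CPM against 1129 to 1281 CPM, with 1 called. The 5 oligodendrocyte markers summed to 3732 to 6209 CPM against 2480 to 2935.5 CPM. The 6 endothelial and pericyte markers summed to 388 to 631 CPM against 110 to 255 CPM, with 0 called. The 6 neutrophil and monocyte markers summed to 96.8 to 421 CPM against 6.64 to 19.4 CPM, with 1 of 3 tested called, while S100a8 and Mpo were at 0 in both groups. The 6 red cell markers summed to 84.5 to 186 CPM against 203 to 475 CPM, with 0 called. The part of these shifts in the result was not tested.

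**Figure D2:**
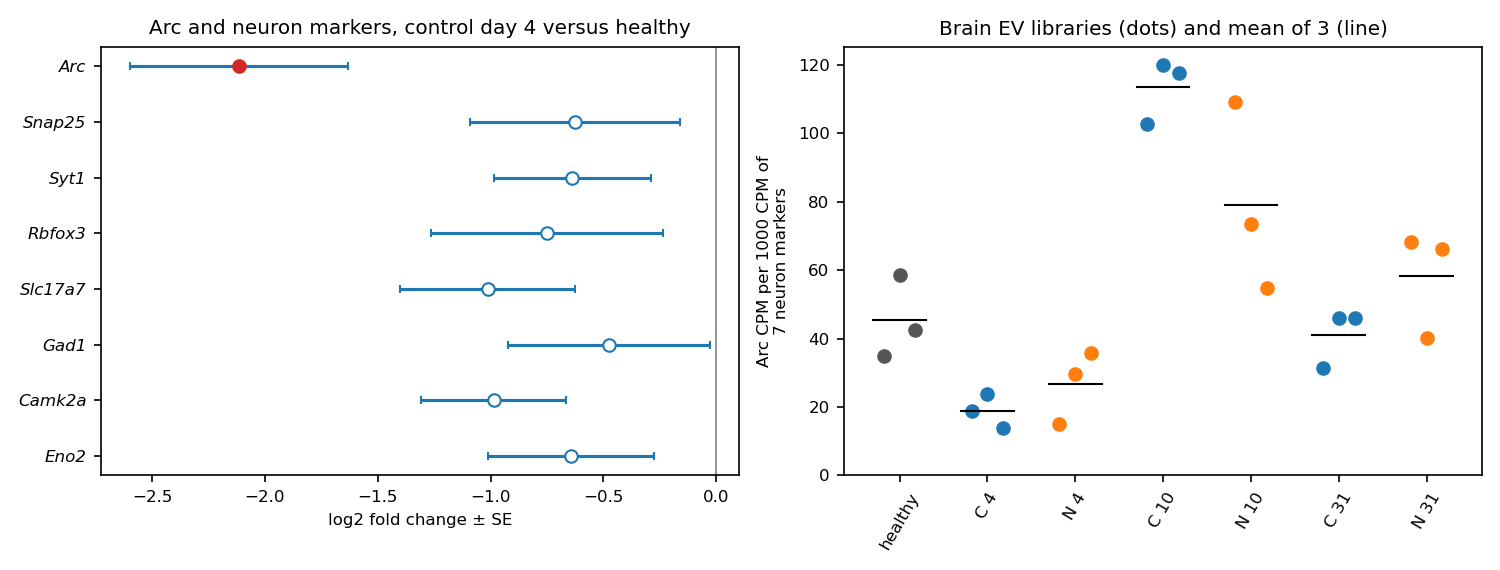
Left, log2 fold change ± SE (x axis, edgeR) of Arc and 7 neuron markers (rows) in brain EVs of control rats at day 4 against healthy rats, with the called gene in filled red. Right, Arc CPM per 1000 CPM of the 7 neuron markers in each brain library (dots) with the mean of 3 (line), 13.9 to 23.7 in control rats at day 4 and 35.0 to 58.7 in healthy rats.

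The other members went both ways at day 4, and none of the 9 was called. The median log2 change of the 10 members was 0.46, beside 0.05 over all genes. CPM of Jun, Jund and Ier2 was higher, and of Arc, Fosb and Nr4a1 lower, in every control library of day 4 than in every healthy one, 6 of 10 members in all, where 24.2% of all genes had groups with no overlap. Unadjusted p (edgeR) was under 0.05 for Arc and Jund, 2 of 10 members, beside 14.8% of all genes.

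Among the AP-1 genes, Jund had the smallest spread in brain. It stood at 185, 99.9 and 127 CPM in healthy rats and at 255, 306 and 346 CPM in control rats at day 4, a log2 change of 1.14 (SE 0.53, adjusted p = 0.306). It was called higher in the fit of the 2 groups alone and in the fit without the libraries of under 2000000 annotated counts. The limma fits that kept the filter on low values called it as well. On log2(FPKM + 1) the median over all genes was itself 0.37 higher at day 4 than in healthy rats. The share of all genes called in these fits is not given here. In hNSCs rats at day 4 Jund stood at 312, 398 and 305 CPM. At day 31 it had values of 107, 157 and 135 CPM in control rats and of 115, 119 and 114 CPM in hNSCs rats, near the healthy ones.

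Jun ranged from 69.0 to 99.9 CPM in healthy rats and from 141 to 242 CPM in control rats at day 4 (log2 change 1.10, SE 0.61, adjusted p = 0.447). Junb ranged from 30.9 to 72.9 CPM and from 56.6 to 177 CPM in the same groups, with overlap (0.89, SE 0.47, adjusted p = 0.406). The log2 changes of the 3 Jun genes thus lay between 0.89 and 1.14, and none passed the test.

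Fos, the classic marker of neuronal activation, did not separate stroke from health at day 4. Fos stood at 19.4, 29.5 and 30.4 CPM in healthy rats and at 38.5, 27.4 and 14.9 CPM in control rats at day 4 (log2 change 0.03, SE 1.14, adjusted p = 1). It stood at 80.5, 42.4 and 38.6 CPM in control rats at day 10 and at 52.5, 58.4 and 50.8 CPM at day 31. With hNSCs at day 4 Fos stood at 0, 25.0 and 35.4 CPM. Both later control groups lay above every healthy library, with log2 changes of 1.02 (SE 1.15) and 1.02 (SE 1.14), and neither was called. Fosb, whose truncated protein form persists in neurons after repeated activity, stood at 15.8, 9.75 and 9.85 CPM in healthy rats. In control rats at day 4 it stood at 1.37, 5.66 and 6.71 CPM, on 8, 19 and 31 counts (log2 change −1.36, SE 1.61). Its control libraries held 17.9, 0 and 25.9 CPM at day 10 and 12.6, 11.9 and 27.1 CPM at day 31. In hNSCs rats it had 0, 13.1 and 8.56 CPM at day 4, 12.1, 0 and 0 CPM at day 10 and 20.7, 10.9 and 21.3 CPM at day 31, so the arms overlapped at each day.

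Egr1 varied most. Its median coefficient of variation within groups of 3 was 1.15 in brain, above that of 90.4% of all genes, where Jund had 0.166 and 5.06%. It stood at 0, 51.4 and 16.9 CPM in healthy rats, at 0, 13.7 and 4.55 CPM in control rats at day 4, at 82.2, 14.0 and 0 CPM at day 10 and at 54.3, 30.0 and 67.3 CPM at day 31. The healthy group overlapped each of the 3 control groups. In hNSCs rats Egr1 stood at 0, 23.0 and 0 CPM at day 4 and at 97.4, 31.3 and 99.2 CPM at day 31, again with overlap. Nr4a1 ranged from 34.5 to 80.4 CPM in healthy rats, from 24.7 to 33.3 CPM in control rats at day 4, from 13.1 to 65.6 CPM at day 10 and from 50.2 to 89.4 CPM at day 31 (day 4 against healthy −1.22, SE 0.87, adjusted p = 0.643).

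Dusp1 and Ier2, which restrain or accompany the response, were low in healthy brain EVs. Dusp1 stood at 0, 10.9 and 28.7 CPM in healthy rats, at 57.4, 25.6 and 15.4 CPM in control rats at day 4, at 33.7, 25.2 and 0 CPM at day 10 and at 49.1, 40.8 and 24.4 CPM at day 31. Ier2 stood at 5.75, 2.44 and 16.3 CPM in healthy rats, at 48.3, 25.6 and 21.2 CPM in control rats at day 4, at 20.03, 54.6 and 14.0 CPM at day 10 and at 12.0, 26.0 and 15.6 CPM at day 31. The log2 changes of Ier2 at day 4 and day 10 were 1.95 (SE 1.03, adjusted p = 0.407) and 1.85 (SE 1.03, adjusted p = 0.497). In hNSCs rats Dusp1 stood at 21.4, 27.0 and 1.43 CPM at day 4, at 21.7, 71.0 and 98.0 CPM at day 10 and at 32.3, 41.1 and 59.6 CPM at day 31, and Ier2 at 2.14, 41.2 and 65.1 CPM, 12.1, 29.3 and 18.1 CPM and 15.6, 29.7 and 8.35 CPM, each overlapping the control rats of the same day. The 3 healthy Ier2 libraries held 8, 11 and 58 counts, which limits the precision of these folds.

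**Figure D3:**
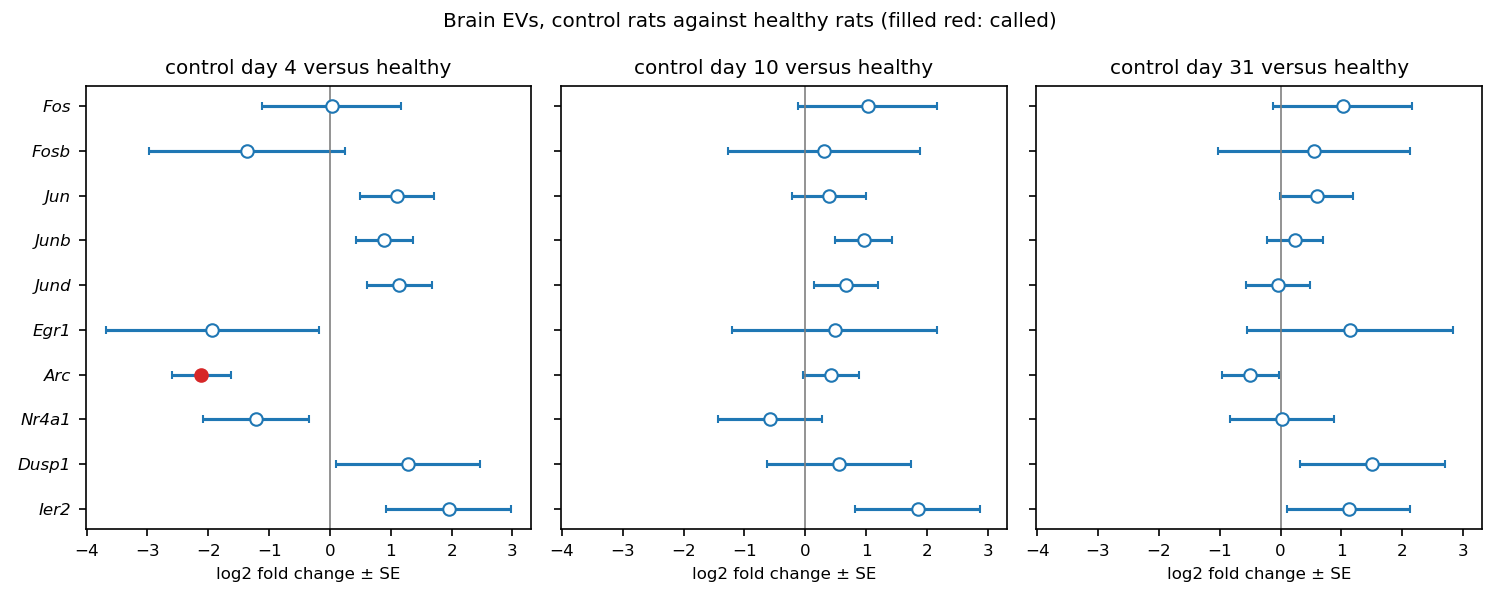
Log2 fold change ± SE (x axis, edgeR) of the 10 members (rows) in brain EVs of control rats at days 4, 10 and 31 against healthy rats, with called genes in filled red. Arc at day 4 is called, at −2.11, and the error bars of Fos, Fosb, Egr1, Dusp1 and Ier2 span 1 log2 unit or more to each side.

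At days 10 and 31 no member was called against healthy rats. The control groups share the healthy libraries, so these comparisons are not independent. At day 10 the members' log2 changes ran from −0.58 to 1.85 with a median of 0.52 (0 over all genes, 0.572% of genes called). No member had an unadjusted p under 0.05, DESeq2 and limma called 0, and 2 members, Fos and Junb, had no overlap with healthy rats, where 14.1% of all genes had none. At day 31 they ran from −0.50 to 1.51 with a median of 0.57 (0.24 over all genes, 0.00689% called). Again 0 had an unadjusted p under 0.05 and DESeq2 called 0, and 2, Fos and Jun, had no overlap, beside 25.3% of genes. On the FPKM scale limma called 9 members higher at day 31, of 9 that passed its filter, beside 94.3% of all genes, including Arc and Jund, whose CPM changes were −0.50 and −0.04. The median over all 7836 genes was itself 1.05 higher on log2(FPKM + 1) there, and annotated genes held 30.3 to 43.0% of counts at day 31 and 7.11 to 20.9% in healthy rats.

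Between control rats at day 31 and day 4 the edgeR test called no member (0.248% of genes), although 7 of 10 members had no overlap, beside 29.2% of genes. Arc, Egr1, Fos, Fosb and Nr4a1 were higher and Jun and Jund lower at day 31 in every library. The largest evidence was again for Arc, with a log2 change of 1.62 (SE 0.48, adjusted p = 0.235), and for Jund, with −1.18 (SE 0.53, adjusted p = 0.436). These were the 2 members with an unadjusted p under 0.05, beside 1379 of the 14515 genes tested. DESeq2 called 1, Arc (1.68% of genes), and limma on FPKM called 5 (50.7% of genes). The median change of the members was 0.61, and of all genes 0.11. On log2(FPKM + 1) the Jund difference was −0.10, and the other 8 of 9 members, Jun included, were higher at day 31, where the all-gene median was 0.69 higher.

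Transplantation of hNSCs was not followed by a called change of any member in brain. At day 4, 1 day after the injection, the log2 changes against control rats ran from −0.98 to 0.67 with a median of 0.18 (−0.12 over all genes). At day 31 they ran from −0.44 to 0.74 with a median of 0.14 (0.00 over all genes). At both days 0 members had an unadjusted p under 0.05 and DESeq2 and limma called 0, and edgeR called 0% of all genes. Members without overlap numbered 0 at day 4 (9.45% of genes) and 1 at day 31 (5.96%). That member was Fos, at 76.7, 64.0 and 68.9 CPM with hNSCs and 52.5, 58.4 and 50.8 CPM without (log2 change 0.38, SE 1.13).

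At day 10, 2 of the 3 hNSCs libraries in brain held the fewest annotated counts of all 21 (569136 and 1123445), and the members were uneven in the group. Egr1 was at 0 counts in all 3 hNSCs libraries and at 193, 30 and 0 counts in control rats. Taken over the group, it was at least 57.1-fold lower with hNSCs, from 37.2 CPM to a floor of 3 counts, or 0.651 CPM, and this bound covers counting error only. The test gave an adjusted p of 0.311, and 1 control library was at 0 as well. Fos stood at 49.7, 0 and 0 CPM with hNSCs. Without the first of these libraries Fos was called lower than in control rats. The hNSCs libraries left in that fit were the 2 with the fewest annotated counts, both at 0 for Fos. The share of all genes called in it is not given here, so the call is not read as a result about Fos. Without the libraries of under 2000000 annotated counts, which left 1 hNSCs library, Jund was lower than in control rats. That fit assumes that the lone library, at 14.9 CPM, varies like the other groups, and the 2 hNSCs libraries it leaves out held Jund at 180.1 and 307 CPM. The 10 log2 changes had a median of −0.20 (−0.34 over all genes), and none was called by edgeR, DESeq2 or limma. In this comparison edgeR called 0% of all genes. Of them 1 had an unadjusted p under 0.05, beside 1945 of the 14515 genes tested. No member was free of overlap between the arms at day 10, where 8.67% of genes were. No difference between days in the effect of hNSCs was called for any member in brain or plasma (edgeR interaction, lowest adjusted p = 0.336, for Egr1 in plasma).

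In plasma no member was called in any of the 7 comparisons. Libraries of 1 group often held many counts of a member beside 0. Fos had 0, 67 and 432 counts in the healthy libraries, and Arc had 1426 counts in 1 hNSCs library of day 31 and 0 in the other two. Such gaps exceed the sampling error of the counts.

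**Figure D4:**
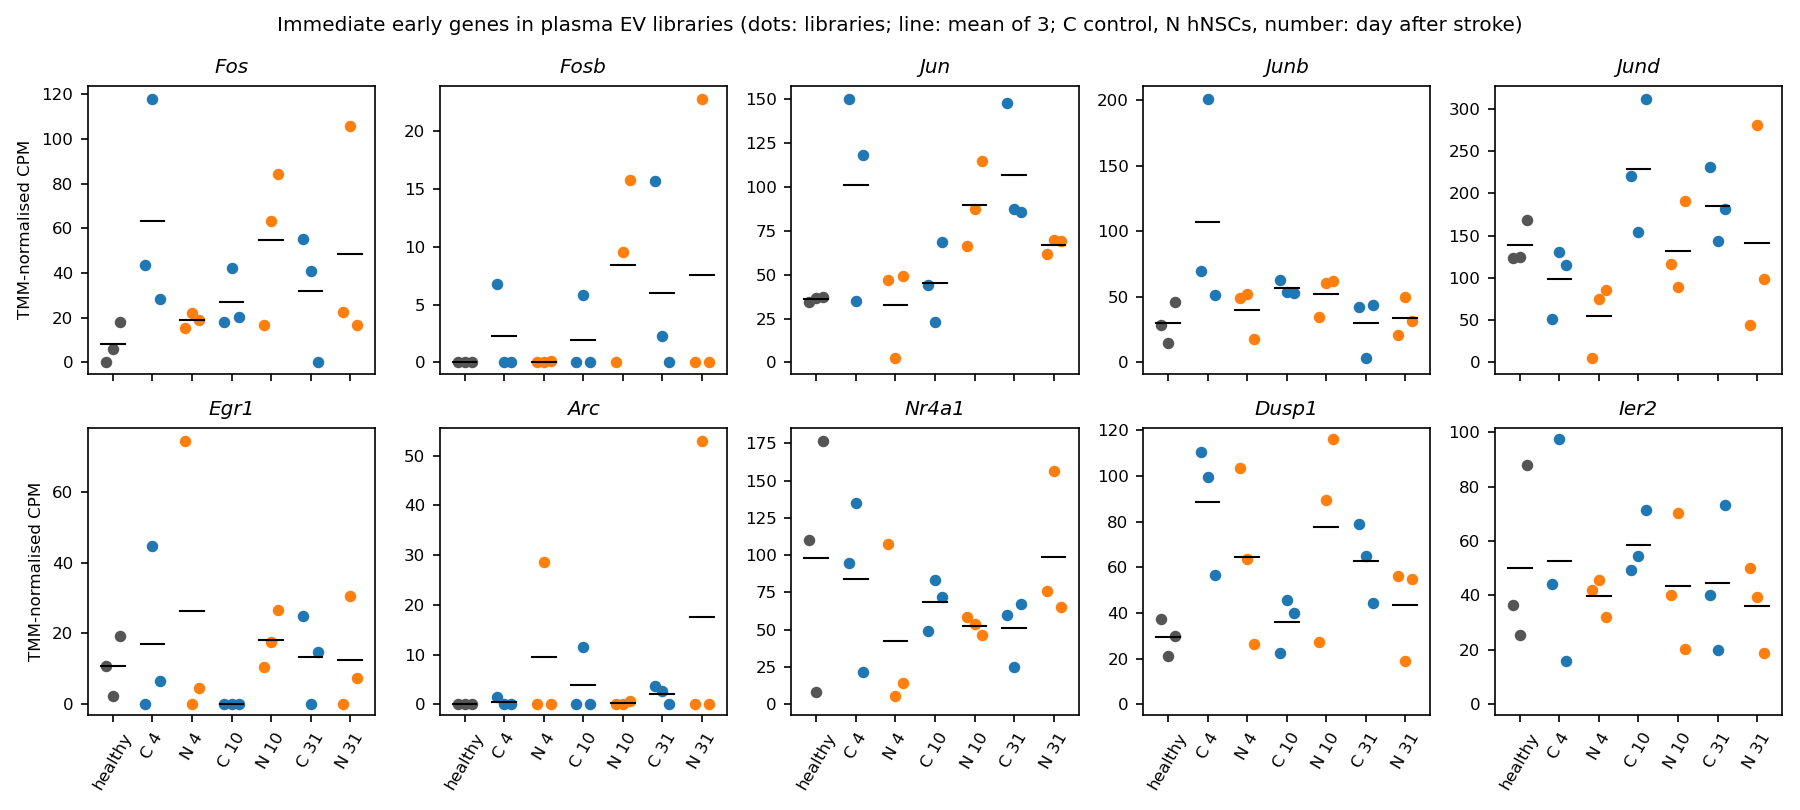
TMM-normalised CPM (y axis, linear, own scale per panel) of the 10 members in the 21 plasma EV libraries by group (x axis; C control, N hNSCs, number the day after stroke), with dots for libraries and a line for the mean of 3. Arc and Fosb are at 0 in the 3 healthy libraries, and Egr1 is at 0 in the 3 control libraries of day 10.

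Fos stood at 0, 5.84 and 18.3 CPM in healthy plasma and at 43.8, 118 and 28.6 CPM in control rats at day 4. These groups did not overlap, yet the log2 change of 2.98 had an SE of 1.64 (adjusted p = 0.742). In hNSCs rats at day 4 Fos stood at 15.6, 22.1 and 19.1 CPM, below each control library (−1.74, SE 1.57, adjusted p = 1). At day 10 it stood at 17.96, 42.2 and 20.3 CPM in control rats and at 16.7, 63.4 and 84.4 CPM in hNSCs rats. At day 31 it stood at 55.3, 41.1 and 0 CPM in control rats and at 22.8, 106 and 16.6 CPM in hNSCs rats, so the arms overlapped at both later days.

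Dusp1 stood at 37.2, 21.2 and 30.1 CPM in healthy plasma and at 110.5, 99.4 and 56.5 CPM in control rats at day 4 (log2 change 1.59, SE 0.60, adjusted p = 0.742). Junb ranged from 14.8 to 46.1 CPM and from 51.3 to 201 CPM in the same groups (1.84, SE 0.76, adjusted p = 0.742). Fos, Dusp1 and Junb were the 3 members of 10 without overlap at day 4, beside 12.5% of all genes, and 0.0679% of genes were called. Dusp1 and Junb had an unadjusted p under 0.05, beside 862 of the 14720 genes tested. DESeq2 called 1 member, Fosb (5.88% of genes), and limma 0. In the same comparison other markers moved as well. The summed level of 6 neutrophil and monocyte markers was 334 to 1384 CPM in healthy plasma and 1674 to 6955 CPM at day 4, with 6 of 6 log2 changes above 0 and 0 called. That of 7 lymphocyte markers was 227 to 392 CPM and 26.1 to 108 CPM, with 7 of 7 log2 changes below 0 and 0 called, and Cd3e was at 0 in the day 4 group. That of 6 red cell markers was 43437 to 79049 CPM and 11650 to 21378 CPM, with 6 of 6 log2 changes below 0 and 1 called. The 5 liver markers all had log2 changes above 0, with a median of 2.30, and 0 were called. Their summed level overlapped, at 1763 to 4936 CPM in healthy plasma and 113 to 19734 CPM at day 4. That of 7 microglia markers was 249 to 327 CPM and 123 to 246 CPM. That of 5 oligodendrocyte markers was 222 to 398 CPM and 67.4 to 144 CPM. The part of these shifts in the member values was not tested.

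Dusp1 overlapped between the arms in plasma at each day. It stood at 22.4, 45.9 and 39.9 CPM in control rats at day 10, at 79.2, 64.9 and 44.2 CPM at day 31, and in hNSCs rats at 104, 63.7 and 26.4 CPM at day 4, 27.1, 89.6 and 116 CPM at day 10 and 56.3, 18.9 and 55.1 CPM at day 31. Ier2 stood at 36.5, 25.6 and 87.9 CPM in healthy plasma and at 44.1, 97.6 and 15.8 CPM, 49.5, 54.6 and 71.4 CPM and 40.3, 20.1 and 73.4 CPM in control rats at days 4, 10 and 31. With hNSCs it stood at 41.9, 45.6 and 32.0 CPM, 40.3, 70.3 and 20.4 CPM and 50.2, 39.3 and 18.8 CPM at these days, and every stroke group overlapped the healthy one.

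In control rats at day 10, Egr1 was at 0 counts in all 3 plasma libraries. The healthy libraries held 10.8, 2.35 and 19.2 CPM, so Egr1 was at least 227-fold lower at day 10 against the floor of 3 counts over the group (edgeR adjusted p = 0.75). It was 10.4, 17.7 and 26.5 CPM in hNSCs rats at day 10, at least 321-fold above the same floor (adjusted p = 0.834). Both bounds cover counting error only. DESeq2 called Egr1 in both comparisons and Fosb in the first, beside 7.85% and 7.48% of genes. Egr1 was also at 0 in 1 control library of day 4 and in 1 of day 31, at 44.6 and 6.51 CPM and at 25.1 and 14.6 CPM in the others, and at 74.4, 0 and 4.47 CPM in hNSCs rats at day 4 and 0, 30.5 and 7.38 CPM at day 31. A zero in 1 library was thus common for this gene, and the 3 zeros of a group were found in brain hNSCs and plasma control rats of day 10.

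Arc and Fosb had no counts in healthy plasma EVs. Arc stood at 1.56, 0 and 0 CPM in control rats at day 4, at 0, 11.6 and 0 CPM at day 10 and at 3.59, 2.59 and 0 CPM at day 31, and in hNSCs rats at 0, 28.6 and 0 CPM, 0, 0 and 0.699 CPM, and 0, 52.9 and 0 CPM at the same days. Fosb stood at 6.75, 0 and 0 CPM in control rats at day 4, at 0, 5.80 and 0 CPM at day 10 and at 15.7, 2.30 and 0 CPM at day 31. Its hNSCs libraries held 0, 0 and 0.164 CPM at day 4, 0, 9.55 and 15.8 CPM at day 10 and 0, 22.8 and 0 CPM at day 31. Over the group, Fosb in control rats was at least 44.7-fold above the healthy floor at day 4, 47.1-fold at day 10 and 147-fold at day 31, and Arc at least 10.4-fold, 94.2-fold and 46.2-fold. Each of these bounds covers counting error only and rests on 1 or 2 libraries, at least 1 library of each stroke group was at 0 like the healthy ones, and none was called by edgeR. DESeq2 called Fosb at day 31 too, beside 4.31% of genes.

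Against healthy plasma, the members' median log2 change was 1.54 at day 4 (−0.12 over all genes), 0.52 at day 10 (−0.22) and 0.75 at day 31 (−0.09). At day 10 and day 31, 1 member each had an unadjusted p under 0.05, Egr1 and Jun, beside 825 and 699 of the 14720 genes tested. At both days edgeR called 0% of all genes. Without overlap were Egr1 and Junb at day 10 and Dusp1 and Jun at day 31, 2 each, beside 12.2% of genes at both days. Between days 31 and 4 the members were called 0 times, against 0.17% of genes. Junb was lower and Jund higher in every library of day 31, with 8.93% of genes free of overlap. Junb had an unadjusted p under 0.05, beside 671 of the 14720 genes. With hNSCs at day 4 the median was −0.91 (0 over all genes), with 0.00679% of genes called. Fos was the member without overlap (7.7% of genes). Jun was the one with an unadjusted p under 0.05 (580 of the 14720 genes), at 46.9, 2.29 and 49.1 CPM against 150.2, 35.0 and 118 CPM. At days 10 and 31 the medians were 0.44 (0.21 over all genes) and 0.06 (−0.10). Egr1 at day 10 and Jun at day 31 were without overlap, beside 8.58% and 11.2% of genes, and edgeR called 0% of genes at either day.

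Within rats, 4 of the 10 members differed between brain and plasma EVs, where 58.1% of 13470 genes did. The 42 libraries were scaled together for this comparison, with the rat as a block. Arc was higher in brain in 21 of 21 rats, at 20.4 to 323 CPM (median 92.9) against 0 to 60.7 CPM (median 0), a log2 difference of 9.81 (SE 1.40, adjusted p = 1.44e-06). Fosb was higher in brain in 14 rats, lower in 6 and at 0 in both in 1, with a median of 10.4 against 0 CPM (6.79, SE 2.22, adjusted p = 0.0109). Many plasma values of both genes were 0, so these fitted values depend on how zeros are treated. For Fosb the difference on log2(FPKM + 1) was −0.04 (adjusted p = 0.771).

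Dusp1 and Ier2 were higher in plasma. Dusp1 was higher in plasma in 19 of 21 rats, with medians of 24.1 CPM in brain and 61.8 CPM in plasma (log2 difference −1.61, SE 0.46, adjusted p = 0.00426). Ier2 was higher in plasma in 19 of 21 rats, with medians of 15.4 and 50.1 CPM (−1.73, SE 0.35, adjusted p = 0.000175). The other 6 members were not called, with log2 differences from −0.66 for Nr4a1 to 0.53 for Jun. The all-gene median was 0.26. On log2(FPKM + 1), 7 members were called higher in plasma, beside 57.8% of all genes, and 1, Arc, higher in brain, beside 9.07%. The all-gene median on that scale was −0.77, brain minus plasma.

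**Figure D5:**
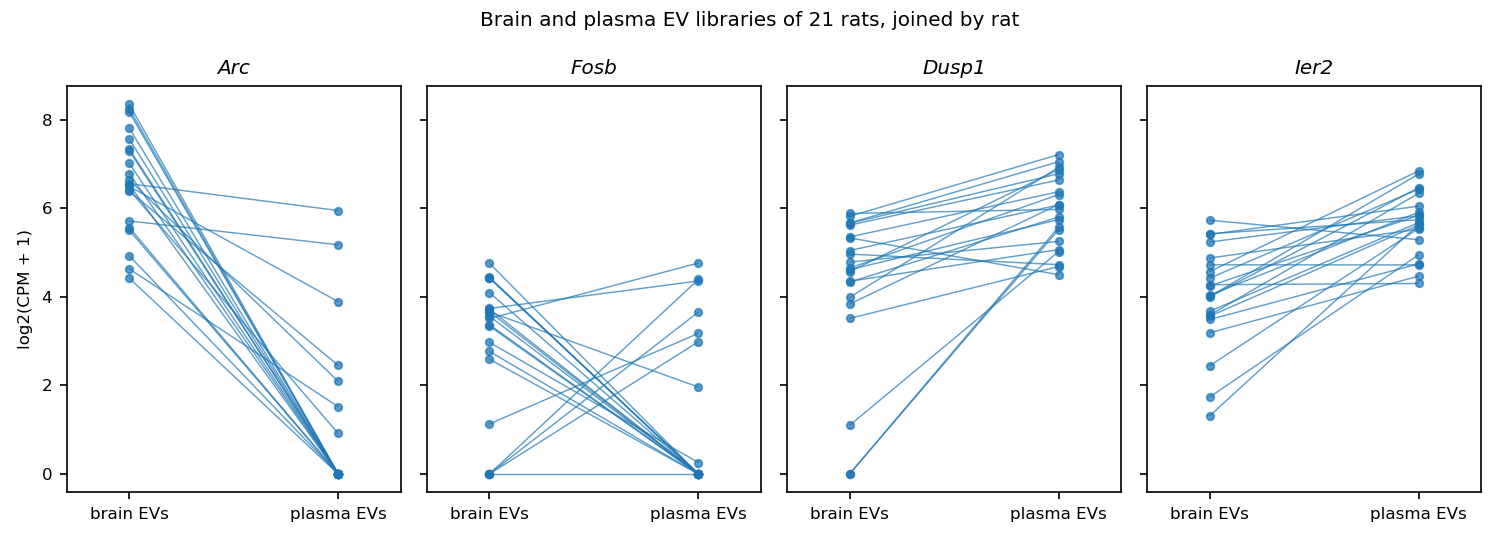
Log2(CPM + 1) (y axis) of Arc, Fosb, Dusp1 and Ier2 in the brain and plasma EV libraries of 21 rats (x axis), with 1 line per rat. Arc is higher in brain in all 21 rats, and Dusp1 and Ier2 are higher in plasma in 19 each.

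No member passed the adjusted threshold for a correlation between its brain and plasma levels over rats. Of the 10 members, 6 had a mean of at least 1 FPKM in both tissues. Pearson's r over 21 rats was 0.591 for Jun (permutation p = 0.00497, adjusted p = 0.406 over 3369 genes), with Spearman's rho of 0.409 (permutation p = 0.0672) and r of 0.445 without the 2 rats farthest from the median brain level. For Fos r was 0.146 (permutation p = 0.528, rho 0.0807, permutation p = 0.726), and it was −0.108 for Junb, 0.00295 for Jund, −0.122 for Egr1 and 0.0216 for Nr4a1. With values centred within the 7 groups r was 0.375 for Jun (permutation p = 0.0951) and −0.0986 for Fos (permutation p = 0.668). Over the 12 rats without hNSCs r was 0.825 for Jun (permutation p = 0.00155, adjusted p = 0.237), rho was 0.608 (permutation p = 0.0399), and r was 0.764 without the 2 farthest rats. Over the 21 rats none of the 3369 genes passed the adjusted threshold, and 255 had an unadjusted permutation p under 0.05. On log2(CPM + 1) r was −0.0387 for Jun.

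Related genes were read from 4 lists. Of the 17 other immediate early transcription factors, such as Egr2, Nr4a2 and Atf3, none was called in the 7 brain and 7 plasma comparisons of groups. Of the 24 other effectors and feedback regulators 1 was called, Sgk1, a stress-induced kinase, which rose in brain at day 4 against healthy rats (log2 change 2.45, SE 0.53, adjusted p = 0.0255). Of the 30 upstream kinases and transcription factors and the 11 bZIP partners of Fos and Jun none was called in these 14 comparisons. At day 4 in brain the medians of the 4 lists were 0.92, 0.53, 0.25 and 0.76, beside 0.05 over all genes. An unadjusted p under 0.05 in that comparison was found for 4 of 17, 5 of 23, 9 of 30 and 2 of 9 tested, beside 14.8% of all genes.

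Between brain and plasma each list held genes called in both directions. Over all 13470 genes tested 58.1% were called, 4362 higher in brain and 3461 in plasma, so called genes in a list are not particular to it. Of the other transcription factors tested (16), 6 were called higher in brain and 6 in plasma, among them Klf4 (log2 difference −3.59) and Klf2 (−2.41), factors of endothelium and blood cells, in plasma, and the clock gene Per1 (2.15) in brain. Of the effectors (23 tested), 5 were higher in brain and 9 in plasma, with the antiproliferative genes Btg1 (−4.58) and Btg2 (−3.16) and the NF-kappaB inhibitor Nfkbia (−2.60) at the lowest adjusted p. Of the upstream genes 13 were higher in brain and 9 in plasma, with Camk2a (14.6), a kinase of excitatory synapses, at the lowest. Of the bZIP partners (10 tested) 2 were higher in brain and 3 in plasma, led by Atf4 (−2.65), a factor of the stress response.

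The genes whose levels were most like Fos, chosen among all genes tested by Pearson's r over the 21 libraries on log2(CPM + 1), were in brain Sfxn1, a mitochondrial serine carrier, Fbxo3, a ubiquitin ligase subunit, and Orc2, of the origin recognition complex. All 3 were at 0 in the same 3 libraries as Fos, in which annotated genes held 569136, 1123445 and 1847441 counts, so these libraries formed a cluster of their own. Over the 18 brain libraries with Fos counts r was 0.708 for Sfxn1 (rho 0.736), 0.595 for Fbxo3 (rho 0.614) and 0.633 for Orc2 (rho 0.649), given as a description, since the genes were chosen on libraries that include these 18. In plasma they were Rsrp1 (r = 0.740, permutation p = 4e-05, rho 0.646, permutation p = 0.00201), Mmrn2 (0.702, permutation p = 0.00076, rho 0.545, permutation p = 0.0115) and Rhob (0.690, permutation p = 0.00049, rho 0.716, permutation p = 0.00041), the last itself an immediate early gene. Without the 2 libraries farthest from the median Fos level, both at 0, r was 0.556, 0.540 and 0.594. Corrected for the 14515 and 14720 genes searched, no permutation p over the 21 libraries passed 0.05 (lowest 0.145), and the smallest p that 100000 permutations can give is 1e-05.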

How the data were processed

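After trimming, the authors mapped mRNA reads with Bowtie2 to Rnor_6.0 and assembled them with StringTie. The deposited counts are raw reads of each gene, and the deposited FPKM values come from StringTie, as a sum over the transcripts of each gene. The counting tool and strand setting are not given in the sources used here, so overlapping and antisense genes may share reads. The labels name serum in the extraction text and plasma elsewhere. Groups came from the labels, which number the rats as biological replicates, and n was 3 rats per group.

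Tests on annotated genes used the quasi-likelihood method of edgeR 4.0.16 (R 4.3.3) after TMM and filterByExpr, with all 7 groups of a tissue in 1 model. Calls needed a change over 1.5-fold and a p under 0.05 after Benjamini-Hochberg adjustment. Brain and plasma were compared with the rat as a block, and correlated over 21 rats with 100000 two-sided permutations. Alternatives were DESeq2 1.42.0, limma 3.58.1 on log2(FPKM + 1) or log2(FPKM + 0.1) with FPKM of at least 1 in 3 libraries or no filter, no count filter, new genes kept, only the groups compared, adjusted p alone, the replicate number as a block and each library left out. Leaving out 5 brain libraries of under 2000000 annotated counts was chosen after seeing the data. Where a whole group had no counts, the fold is a bound computed with 3 counts for the group in place of 0. The tests were also run on simulated data with known differences. In the simulated counts no gene varied more than the common estimate of the spread, so that run does not cover noisier genes. Scripts ran in Python 3.11.15 with pandas 2.3.3 and scipy 1.17.1.

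The members and lists were chosen with earlier results of these data known. All 10 members are named, with every library for those called in a comparison and for Fos, Egr1 and Arc, and others by range or, where a comparison turns on them, by library. Of related lists up to 3 called genes per comparison with the lowest adjusted p are named, and the 3 genes per tissue most like Fos. Promoters are RefSeq sequences of GRCr8, another build than that of the files. The miRNA tables were not used.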

Additional observations from a re-analysis of the deposited data

Results flagged for a closer look

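Jund was flagged because it moved in opposite directions in the tissues between control rats at days 4 and 31. In brain it was lower in every library of day 31 than in every library of day 4 (log2 change −1.18, SE 0.53, adjusted p = 0.436, edgeR), and in plasma it was higher in every library (0.90, SE 0.70, adjusted p = 1). The changes differed by −2.08 on the log2 scale, brain minus plasma, and this difference was not tested. Groups had no overlap for 29.2% of all genes in brain and 8.93% in plasma. On log2(FPKM + 1) the Jund difference in brain was −0.10.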

How the results depend on the processing

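Of 163 counts of called members under settings that kept all or most libraries, 142 stayed within 1.5 times the main count. Of 84 counts with 1 library left out 77 did. The main count was 0 in every comparison of 2 groups but brain at day 4 against healthy rats, so these tallies mostly count 0 staying at 0. The 77 hold no support for the call of Arc, which was lost each time a library was left out. The count for brain at day 4 against healthy rats (1, Arc) was 2 (Arc and Jund) in the fit of the 2 groups alone and without the libraries of under 2000000 annotated counts, 0 with limma without a filter, and 0 to 0 without any 1 library. With limma and the filter it stayed at 1 but was Jund, not Arc. At day 31 against healthy rats, limma on FPKM gave 9, 9 with a pseudocount of 0.1 and 8 without a filter, against 0. Between days 31 and 4 the count of 0 became 1 with DESeq2 (Arc), 5, 3 and 4 in the same 3 limma fits, 2 in the fit of the 2 groups alone and 1 without the shallow libraries (Jund). For hNSCs at day 10 it became 1 (Jund) without the shallow libraries, which left 1 hNSCs library whose spread is assumed to be that of the other groups, and 0 to 1 with 1 library left out. For any difference over 7 groups in brain limma gave 9 against 1. On the same scale limma called 94.3% of all genes at day 31 against healthy rats and 50.7% between days 31 and 4. The count of 9 is thus not read as a result about the members. In plasma, DESeq2 gave 1, 2 and 1 against healthy rats at days 4, 10 and 31, 1 for hNSCs at day 10 and 1 for the difference between days 10 and 31 in the effect of hNSCs, against 0 in each. Between brain and plasma the 3 healthy rats alone gave 2 and limma on FPKM gave 8, against 4, and the Fosb difference reversed to −0.039 with limma. The cause was not tested for these changes. Counts given here without a share of all genes say nothing about the members as a set.

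Rats of different groups with the same replicate number did not deviate together (median correlation −0.0106 in brain and −0.00626 in plasma), so they share only a number. With the replicate number as a block, the count of called members was 1 for brain at day 4 and 0 in the other comparisons of groups, and Arc had an adjusted p of 0.039. Low counts, such as 8, 11 and 58 of Ier2 in healthy brain, limit single folds. In plasma, with more annotated counts, the SE of Fos at day 4 against healthy rats was 1.64, and 1.14 in brain.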
